A study of Mus musculus with 2 samples.

Results

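Tgfb1, Tgfb2, Tgfb3, Tgfbr1, Tgfbr2, Tgfbr3, Mstn, Inhba, Acvr2b and Fst encode ligands, receptors and 1 antagonist of the TGF-beta, activin and myostatin system. These 10 genes were taken by symbol from the 33696 genes listed in both libraries, without regard to their levels, and each was detected. TGF-beta is secreted in a latent form bound to matrix, and once freed it binds the type II receptor TGFBR2, which recruits the type I receptor TGFBR1 and signals through SMAD2 and SMAD3. Myostatin and activin A reach the same SMADs through the type II activin receptors, and follistatin binds both ligands outside the cell. In skeletal muscle, myostatin is the classic brake on fibre growth, and TGF-beta is best known for driving fibrosis by fibro-adipogenic progenitors (FAPs), the resident mesenchymal cells.

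The counts came from cells of the tibialis anterior (TA), a hindlimb muscle, in 1 library of genotype WT and 1 library of genotype KO. For each strain, 10 muscles of 5 male mice were pooled and dissociated enzymatically, red cells were lysed, and live cells were sorted by exclusion of propidium iodide, with no sort for a cell type. The title concerns IGF-I, a growth factor, made by mesenchymal progenitors themselves, but the labels say neither what the KO genotype removes nor in which cells. The labels name no age, and ND is not spelled out in them.

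The library labelled WT held 11360 barcodes with a median of 2688.5 UMIs (unique molecular identifiers, each a counted molecule), and the library labelled KO held 19531 with a median of 4010. After filters, 10164 and 17946 barcodes were kept, and classes named from marker genes are called X-like. The labels call all the cells FAPs, whereas FAP-like cells were 1553 and 1071, or 15.3 and 5.97% of kept barcodes. Igf1 was at 369 and 395 CPM (counts per 1e+06 UMIs of the class) in them, so it was not lower in the library labelled KO. A cluster of 2867 barcodes of that library, with a median of 1348 UMIs and none from the other library, was given no class. The libraries shared 61 barcode sequences. Each group is 1 library of pooled animals, so no difference has a replicate check and no test between genotypes was possible. Values in the form "A and B" give the library labelled WT first. Intervals are 95% and cover counting error only, and levels are compared across cell classes for 1 gene at a time, since counts of 3′ ends do not rank genes.

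The upstream sequences of Mstn and Tgfb1 are shown because their spread over the 12 named classes differed. Mstn was at most 2.06 CPM outside tenocyte-like and myofibre-like cells, while Tgfb1 was at least 11.8 CPM in all 12. Each line holds the 250 bases before the gene's start, from RefSeq on GRCm38.p6, 5′ to 3′ on the plus strand, at chr1:53061390-53061639 for Mstn and chr7:25686752-25687001 for Tgfb1. Capitals mark matches to the E-box CANNTG (the motif of muscle and tendon bHLH factors), the AP-1 motif TGANTCA and the TATA box TATAAA, searched on both strands.
Mstn: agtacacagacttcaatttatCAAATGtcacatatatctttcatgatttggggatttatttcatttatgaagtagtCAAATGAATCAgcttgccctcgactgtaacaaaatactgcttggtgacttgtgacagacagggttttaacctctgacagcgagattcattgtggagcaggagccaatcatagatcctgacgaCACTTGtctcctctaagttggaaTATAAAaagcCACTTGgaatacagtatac
Tgfb1: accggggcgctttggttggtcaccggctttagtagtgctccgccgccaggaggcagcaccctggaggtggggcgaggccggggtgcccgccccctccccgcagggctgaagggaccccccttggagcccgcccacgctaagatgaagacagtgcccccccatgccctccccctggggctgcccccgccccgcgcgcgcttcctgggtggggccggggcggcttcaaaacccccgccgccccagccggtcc
The Mstn window had 38.4% GC and 3 CpG, with E-boxes 229, 174, 52 and 19 bases before the start and a TATA box at 29. Its 1 AP-1 match, at 170, overlaps the E-box at 174. The Tgfb1 window had 75.2% GC and 21 CpG and none of the 3 motifs. Over 32841 such windows the median was 52.4% GC and 6 CpG, 66.2% held an E-box, 3.8% held 4 or more, 6.8% held AP-1 and 12.4% held TATAAA. These are matches of letters, not measured binding sites. The table held 7 of the 10 genes.

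Tgfb1 (ENSMUSG00000002603, chr7:25687002-25705077, GRCm38.p6), the TGF-beta ligand best known in immune regulation and fibrosis, was highest in macrophage-like, B-cell-like, T-cell-like and endothelial-like cells. Neutrophil-like cells were lower, at 68.4 and 60.3 CPM. Macrophage-like cells had 334 CPM (310 to 360, from 698 UMIs) in the library labelled WT and 349 (331 to 368, from 1410 UMIs) in the library labelled KO. This class included sub-clusters named dendritic, of 72 and 34 and of 33 and 20 cells. Tgfb1 was at 307 and 491 CPM in its sub-cluster led by Lyve1 and at 499 and 386 in the one led by Ikzf3. The larger dendritic one had 323 and 294. B-cell-like cells had 316 and 300.0 CPM, within the counting error of macrophage-like cells in both libraries, and endothelial-like cells had 204 and 209. The mesenchymal classes were far lower, with 48.5 and 84.1 CPM in tenocyte-like cells and 24.7 and 48.2 in FAP-like cells. Endothelial-like cells, the most numerous class, held 51.2 and 60.9% of all Tgfb1 UMIs, and macrophage-like cells held 18.6% in the library labelled WT. Within endothelium, the capillary sub-cluster led by Gm12002 and Car4 had 99.5 and 100.2 CPM and the venous sub-cluster led by Selp and Sele had 72.5 and 92.7. A second capillary sub-cluster, led by Ifit2 and Rbp7, had 272 and 270 CPM, and the unnamed one led by Caprin2 and Hopx had 257 and 259. The arterial sub-clusters had 218 and 223 (led by Mt1) and 128 and 111 (led by Tmem100). Higher levels lay in unnamed sub-clusters led by Penk, at 416 and 355, and by Iqcn, at 324 and 378.

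Tgfb2 (ENSMUSG00000039239, chr1:186622787-186709697) was a transcript of myogenic and mesenchymal cells. Myogenic-like cells, which carry the satellite cell markers, had 267 CPM (248 to 286) and 213 (203 to 224). Tenocyte-like cells had 172 and 205, FAP-like cells 149 and 152, and mural-like cells, which wrap blood vessels, 98.1 and 81.2. In the library labelled WT none of these neighbouring intervals overlapped, while in the library labelled KO those of myogenic-like and tenocyte-like cells did. T-cell-like cells had 0 and 4 UMIs, and the macrophage-like class was at 3.35 and 9.16 CPM. Among FAP-like sub-clusters Tgfb2 ran from 39.1 and 38.8 CPM in the one led by Tenm2 and Spp1 to 231 CPM in the library labelled WT in the one with Dpp4 and Pi16, markers of an upstream progenitor state. In the library labelled KO that sub-cluster had 163, and the one led by Tmem117 was highest, with 147 and 240.1. In endothelium Tgfb2 was at 71.8 and 48.2 CPM in the arterial sub-cluster led by Mt1 and at 94.2 and 58.0 in the arterial one led by Tmem100. The capillary sub-clusters differed, with 102 and 47.7 in the one led by Ifit2 and Rbp7 and 7.44 and 6.63 in the Car4 one. In the Ifit2 and Rbp7 sub-cluster arterial markers ranked second to capillary ones, with mean log2 folds over the sub-cluster median of 0.82 and 1.41.

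Tgfb3 (ENSMUSG00000021253, chr12:86056743-86079041), the third TGF-beta isoform, was highest in mural-like cells, at 136 CPM (126 to 146) and 166 (159 to 173), apart from every other class in both libraries. Tenocyte-like cells followed with 88.6 and 70.4, then myogenic-like cells with 58.6 and 38.6, perineurial-like cells with 55.7 and 42.3 and FAP-like cells with 54.9 and 40.5, the last 3 within counting error of each other. Neither pericytes nor smooth muscle were uniform in Tgfb3. The pericyte sub-cluster led by Hspa1a and Kcnj8 had 169 CPM in each library and the one led by Gm44148 had 54.8 and 63.9. The named smooth muscle sub-clusters had 77.6 and 100.3 (led by Csmd1 and Ccl19) and 137 and 152 (led by Or51f23b). Unnamed sub-clusters that ranked the smooth muscle list first had more, with 173 and 256 (led by Ptgis) and 205 and 681 (led by Mt3). The latter values came from 17 and 88 UMIs. The unnamed one led by Mapk4 had 204 and 170. Endothelial-like cells were near the bottom, with 5.86 and 9.96. The 3 ligand genes therefore had different leading classes: macrophage-like for Tgfb1, myogenic-like for Tgfb2 and mural-like for Tgfb3. The lead was within counting error of B-cell-like cells for Tgfb1 in both libraries. For Tgfb2 it was within that of tenocyte-like cells in the library labelled KO. Across 12 classes the Pearson r of log2 levels was 0.86 between Tgfb2 and Tgfb3 and -0.60 between Tgfb1 and Tgfb3, values that describe classes drawn from the same 2 libraries.

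Mstn (ENSMUSG00000026100, chr1:53061640-53068079), which encodes myostatin, was detected above a few UMIs in 2 of the 12 named classes. Myofibre-like cells, a known source of myostatin, had 63 and 125 UMIs, or 57.0 CPM (43.8 to 72.9) and 52.0 (43.3 to 61.9). Tenocyte-like cells had 208 and 243 UMIs, or 58.0 CPM (50.3 to 66.4) and 48.2 (42.3 to 54.6), so the 2 classes lay within counting error of each other. No other named class had more than 3 UMIs in the library labelled WT or 7 in the library labelled KO. Tenocyte-like cells held 74.3 and 60.3% of all Mstn UMIs, and myofibre-like cells 22.5 and 31.0%.

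The same class level came from very different cells. In myofibre-like cells 11.1 and 11.5% of cells had a Mstn UMI, no cell had more than 3 in the library labelled WT or 4 in the library labelled KO, and the median depth was 1865 and 2472 UMIs. In tenocyte-like cells only 3.93 and 5.21% of cells had one, at median depths of 4229.5 and 8274.5. In these cells, 12 and 11 cells with at least 5 UMIs held 83.7 and 86.0% of the class's Mstn, and the single highest cell held 44 and 73 UMIs. The 30 and 30 Mstn-bearing cells had the tendon marker Tnmd at 2039 and 1113 CPM, close to the 2095 and 1165 of the tenocyte-like cells without Mstn. They had Scx, the tendon bHLH factor, at 110 and 43.5 CPM against 181 and 142. Their summed myofibre markers were 1067 CPM against 548 in the library labelled WT but 573 against 827 in the library labelled KO, so these markers did not go one way with Mstn. By sub-cluster, 189 and 183 of the tenocyte-like Mstn UMIs lay in the one led by Sord and C1ql3 (379 and 122 cells), at 126 and 222 CPM. In the sub-clusters led by Scg3 and by Pla2g5 there was at most 1 UMI per library.

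Inhba (ENSMUSG00000041324, chr13:16004256-16031609) encodes the beta A subunit, which pairs with itself to form activin A. It was a transcript of the connective tissue classes: tenocyte-like cells had 111 CPM (101 to 123) and 77.3 (69.8 to 85.4), FAP-like cells 48.6 (44.1 to 53.4) and 95.3 (89.9 to 101), and perineurial-like cells 57.8 (38.4 to 83.5) and 89.8 (69.8 to 114). Tenocyte-like cells were highest in the library labelled WT with no overlap of intervals, whereas in the library labelled KO FAP-like cells were above tenocyte-like cells and perineurial-like cells overlapped both. Mural-like cells had 35.2 and 32.9 CPM, glial-like cells 27.5 and 29.9, and T-cell-like cells 0 and 1 UMI. Within mural-like cells, pericytes of the Hspa1a and Kcnj8 sub-cluster had 0 and 1 UMI, against 85.3 and 98.4 CPM in the sub-cluster led by Ptgis. All 42 endothelial UMIs of the library labelled WT, and 84 of 107 in the library labelled KO, lay in the venous sub-cluster, where 1 cell held 40% of them in the library labelled WT.

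**Figure D1:**
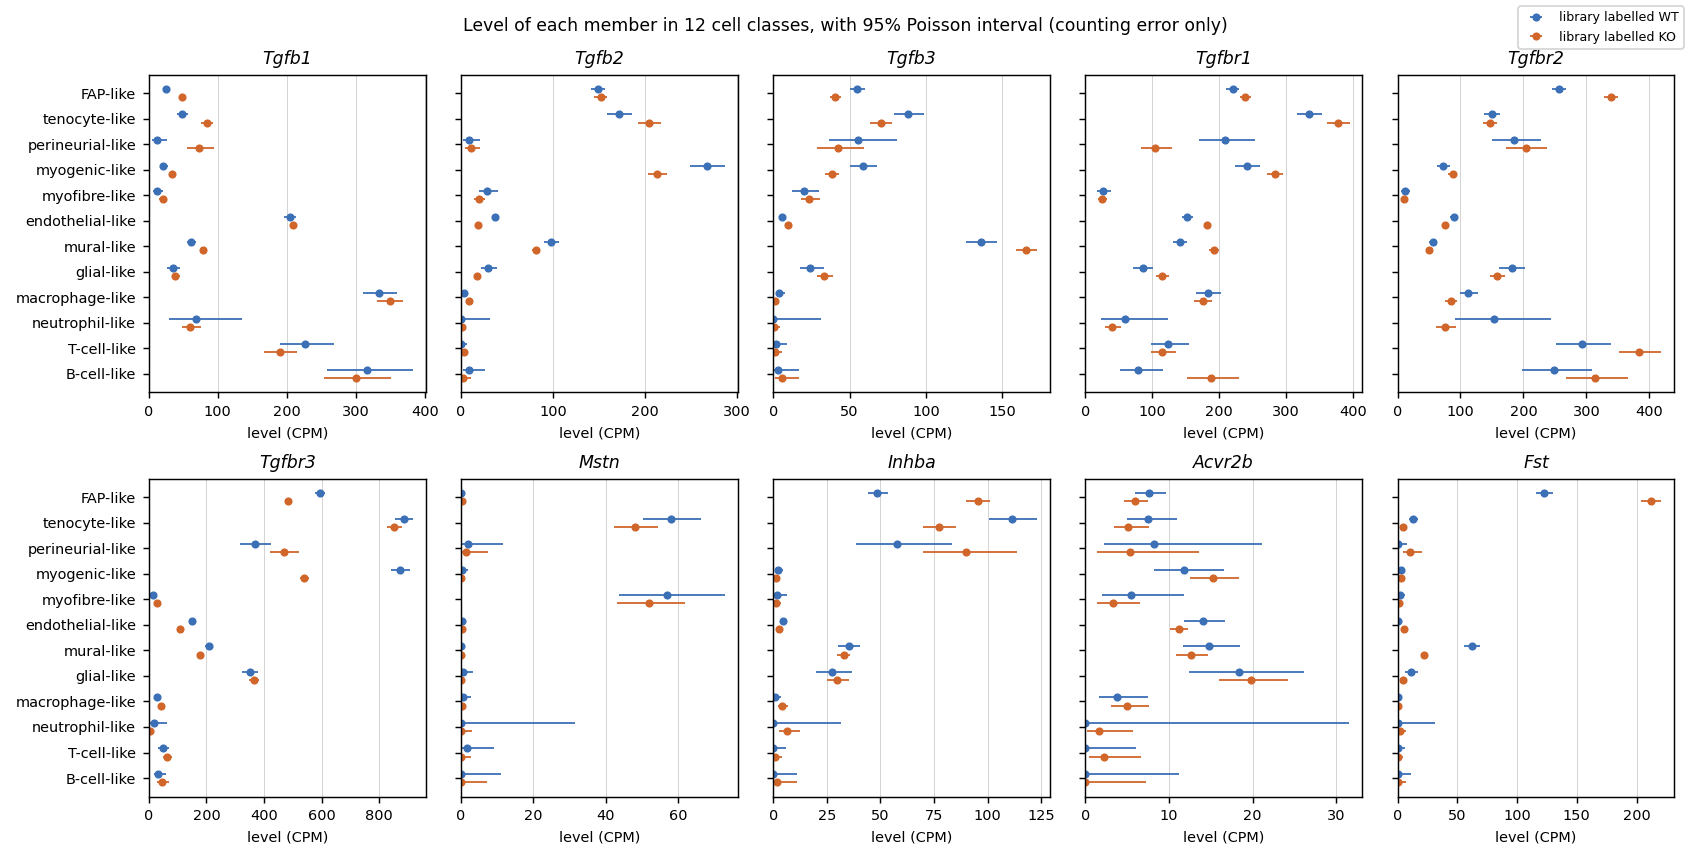
Level of each of the 10 genes (CPM, horizontal axis, scaled per gene from 0) in 12 cell classes, with blue points for the library labelled WT, orange points for the library labelled KO and bars for 95% Poisson intervals. Mstn stands out in tenocyte-like and myofibre-like cells, Tgfb3 peaks in mural-like cells at 136 and 166 CPM, and Fst in FAP-like cells at 123 and 212 CPM.

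Both signalling receptor genes had UMIs in all 12 classes. Tgfbr1 (ENSMUSG00000007613, chr4:47353222-47414926), the type I receptor, was highest in tenocyte-like cells, at 335 CPM (316 to 354) and 378 (361 to 395). Myogenic-like cells had 242 and 283, FAP-like cells 220.4 and 239, endothelial-like cells 153 and 181, and the macrophage-like class 183 and 175. The low end was myofibre-like cells, with 26.2 and 25.4. Tgfbr2 (ENSMUSG00000032440, chr9:116087695-116175363), the type II receptor that binds the ligand, was highest in T-cell-like cells with 293 CPM (251 to 339) and 384 (352 to 419). B-cell-like cells had 249 and 314 and FAP-like cells 257 and 339, both within counting error of T-cell-like cells in the library labelled WT. Within FAP-like cells Tgfbr2 was higher in the Dpp4 and Pi16 sub-cluster, 493 and 605 CPM, than in any other sub-cluster with at least 30 cells in each library, which spanned 144 to 302 and 178 to 363. The 2 signalling receptors thus had different leading classes, tenocyte-like for Tgfbr1 and T-cell-like for Tgfbr2.

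Tgfbr3 (ENSMUSG00000029287, chr5:107106567-107289629) encodes betaglycan, a co-receptor that presents TGF-beta2 in particular and also binds inhibin. Tenocyte-like cells had 884 CPM (854 to 916) and 853 (827 to 879), myogenic-like cells 873 (840 to 908) and 540 (524 to 557), and FAP-like cells 594 and 485. In the library labelled WT the first pair overlapped, and in the library labelled KO they did not. Perineurial-like cells had 367 and 469 CPM and glial-like cells 351 and 367, while macrophage-like cells had 26.8 and 41.1. The venous endothelial sub-cluster stood above the others with at least 30 cells in each library, with 440 and 358 CPM against 47.9 and 58.0 in the Mt1 arterial one. Across the 12 classes Tgfbr3 went with Tgfb3 at r = 0.80. Acvr2b (ENSMUSG00000061393, chr9:119401583-119442148), a type II receptor for myostatin and activin, had 388 and 976 UMIs in all. It was low everywhere, with its highest levels of 18.3 CPM (12.4 to 26.2) and 19.8 (16.0 to 24.3) in glial-like cells and 14.8 and 12.6 in mural-like cells. In no class did it reach the 20 CPM used as the floor for comparing libraries.

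Fst (ENSMUSG00000021765, chr13:114452262-114458989), which encodes follistatin, was mainly a transcript of FAP-like cells. FAP-like cells had 123 CPM (116 to 130) and 212 (204 to 221) and held 72.9 and 77.7% of all its UMIs. Mural-like cells were the only other named class above 20 CPM, with 62.3 and 21.7. The endothelial class had 0 UMIs in 3312 cells of the library labelled WT, which allows up to 0.0906% of cells with a UMI at a median depth of 2352.5 UMIs and sets no limit on cells that express the gene. In the library labelled KO they had 193 UMIs, of which 83% were in 1 cell of the lymphatic sub-cluster. Within FAP-like cells Fst was uneven, at 322 and 421 CPM in the sub-cluster led by Comp and Gdf10 and at 115 and 346 in the Dpp4 and Pi16 one. The sub-cluster led by Fbln7 and G0s2 had 108 and 59.0. The one led by F2rl1 and Thbs1, with 1 cell in the library labelled WT, had 904 UMIs in the library labelled KO, at 260 CPM. Fst was nearly silent, at 3 and 2 UMIs, in the Tenm2 and Spp1 sub-cluster and, at 1 and 0 UMIs, in the one led by Tmem117 and Coch. The same 2 sub-clusters had some of the higher Inhba levels among FAP-like cells, 92.2 and 290 CPM and 121 and 142 CPM. Neither was given a name. Among marker lists other than FAP, the Tmem117 one ranked the perineurial list first. The Tenm2 one ranked the erythroid list first and the perineurial list second. Perineurial-like cells, a separate class, had 0 and 8 Fst UMIs, and whether these 2 sub-clusters are FAPs was not tested. Although Fst and Inhba had r = 0.74 across classes, their levels did not always go together inside FAP-like cells. The Dpp4 and Pi16 sub-cluster, with Fst at 115 and 346 CPM, had Inhba at 3.62 and 14.8. The sub-cluster led by Dlk1 had both, with Fst at 46.9 and 135 and Inhba at 126 and 137.

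**Figure D2:**
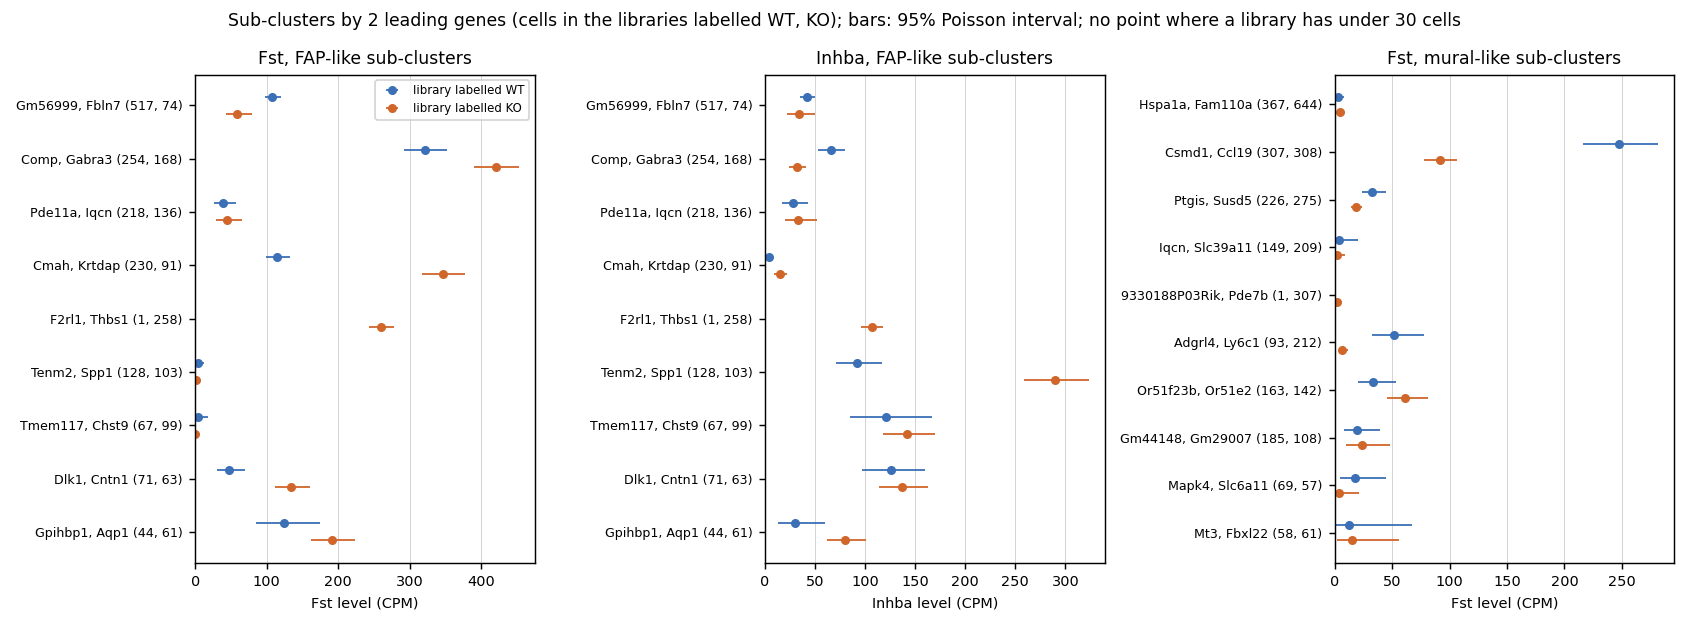
Levels (CPM, with 95% Poisson intervals) of Fst and Inhba in the sub-clusters of FAP-like cells and of Fst in those of mural-like cells, by library, labelled by leading genes and cell numbers, with no point for a library with under 30 cells (the Dpp4 and Pi16 sub-cluster is led by Cmah and Krtdap). Fst reaches 421 CPM in the Comp and Gdf10 sub-cluster and 2 UMIs in the Tenm2 and Spp1 one, where Inhba is at 92.2 and 290 CPM, and mural Fst is highest in the Csmd1 and Ccl19 sub-cluster at 247 and 91.2 CPM.

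Between libraries, levels were compared in the 10 classes with at least 100 cells in each, for genes that reached 20 CPM in either library and 100 UMIs in the sum of both. Ratios are log2 of the level in the library labelled KO divided by that in the library labelled WT, after adding 1 CPM. Of 100 gene and class pairs, 54 passed these floors. Past 1.5-fold, 6 were higher in the library labelled KO and 6 lower, against 8.32 and 7.35% of all 58054 gene and class pairs. The share of the 10 genes past the fold was thus 6 of 54 in each direction, near the background. Among the 12, Tgfb2 in endothelial-like and glial-like cells passed the floor through the library labelled WT alone. Most pairs, 42 of 54, lay within 1.5-fold.

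FAP-like cells had the most pairs higher, 3 of the 8 genes past the floors and none lower, where 11.9% of all 7169 genes were higher and 11% lower and the median of all genes was 0.03. The 3 were Tgfb1, Inhba and Fst, a ligand, an activin subunit and the activin antagonist. Tgfb1 was at 24.7 CPM (218 UMIs) and 48.2 (576 UMIs), a log2 ratio of 0.94 (0.74 to 1.2). Inhba was at 48.6 (429 UMIs) and 95.3 (1138 UMIs), a log2 ratio of 0.96 (0.81 to 1.14). Fst was at 123 (1086 UMIs) and 212 (2534 UMIs), a log2 ratio of 0.78 (0.68 to 0.89). All 3 were also found in a larger share of that library's FAP-like cells, 10.8 and 28.0% for Tgfb1, 15.5 and 25.5% for Inhba and 25.2 and 37.7% for Fst, at median depths of 5400 and 10481 UMIs. With cells thinned to 2000 UMIs the shares were 3.91 and 8.83%, 7.76 and 9.72%, and 14.8 and 20.1%. The other 5 genes past the floors were within 1.5-fold, among them Tgfbr2 with a log2 ratio of 0.40, Tgfb3 with -0.43 and Tgfb2 with 149 and 152 CPM.

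FAP-like cells of the 2 libraries were not the same mix of states, and sub-clusters bear on these 3 ratios. The sub-cluster led by Fbln7 and G0s2 held 517 and 74 cells, and the one led by F2rl1 and Thbs1 held 1 and 258. Summed endothelial markers in FAP-like cells were 119 and 262 CPM, and their part in the ratios was not tested. Leaving out the 3 sub-clusters with under 30 cells in a library, an alternative chosen after seeing the data, gave log2 ratios of 0.82 for Tgfb1, 0.89 for Inhba and 0.64 for Fst over 1529 and 795 cells. Tgfb1 was higher in the library labelled KO in 7 of the 8 sub-clusters left, with log2 ratios up to 1.59 (0.51 to 3.00, from 7 and 63 UMIs). In the other, the one led by endothelial genes, it was at 60.5 and 59.4 CPM. Of the 7, the Fbln7 and G0s2 one had 0.28 (-0.40 to 0.93) and the Dpp4 and Pi16 one 0.61 (-0.07 to 1.37), intervals that include 0. Inhba was uneven: the Tenm2 and Spp1 sub-cluster had 92.2 and 290 CPM, a log2 ratio of 1.64 (1.26 to 2.06), and the Comp and Gdf10 one 65.5 and 31.7, a log2 ratio of -1.02 (-1.56 to -0.55). With an equal mix of sub-clusters, Inhba had a log2 ratio of 0.58, under 1.5-fold. Fst was higher in the Dpp4 and Pi16 sub-cluster, with a log2 ratio of 1.59 (1.35 to 1.84), and lower in the Fbln7 and G0s2 one, with -0.86 (-1.36 to -0.42).

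Fst in mural-like cells differed in the opposite direction, with 62.3 CPM (329 UMIs) and 21.7 (313 UMIs), a log2 ratio of -1.48 (-1.75 to -1.29). It was the 1 gene of 8 past the floors there that was at least 1.5-fold lower, where 5.51% of 7057 genes were lower and 3.54% higher. The smooth muscle sub-cluster led by Csmd1 and Ccl19, with 307 and 308 cells, held 226 and 161 of the UMIs, at 247 and 91.2 CPM. A pericyte sub-cluster led by 9330188P03Rik held 1 and 307 cells, with Fst at 2.11 CPM in the library labelled KO, and without the sub-clusters with under 30 cells in a library the class ratio was -1.33. The sub-cluster led by endothelial genes had 51.4 and 6.10 CPM, and the smooth muscle one led by Or51f23b had 33.7 and 61.5. In the former, 1 cell held 77% of the 22 UMIs of the library labelled WT. In the latter, 1 cell held 37.5% of the 48 UMIs of the library labelled KO. Tgfb2 was lower in endothelial-like cells, at 37.2 CPM (349 UMIs) and 18.9 (709 UMIs), a log2 ratio of -0.94 (-1.17 to -0.79), where 5.57% of 6630 genes were lower and 2.22% higher. It was lower in both arterial sub-clusters, with log2 ratios of -0.57 (-0.84 to -0.31) and -0.69 (-1.2 to -0.19), and in the one led by Ifit2 and Rbp7, with -1.08 (-1.57 to -0.61). The make-up of endothelial-like cells differed, with 676 and 800 cells in the Mt1 arterial sub-cluster and 751 and 2484 in the Caprin2 and Hopx one. The latter had Tgfb2 at only 2.16 and 3.56 CPM. With an equal mix of sub-clusters the class log2 ratio was -0.68.

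Tgfb2 was also lower in glial-like cells, with 29.3 CPM (48 UMIs) and 17.7 (83 UMIs), a log2 ratio of -0.70 (-1.26 to -0.18), where 3.58% of 7487 genes were lower and 3.83% higher. In myogenic-like cells Tgfbr3, at 873 and 540 CPM, had a log2 ratio of -0.69 (-0.77 to -0.62), Tgfb3 one of -0.59 (-0.88 to -0.32) and Tgfb1, at 21.3 and 34.2 CPM, one of 0.66 (0.28 to 1.11). In that class 9.13% of 6377 genes were lower and 11.5% higher. The make-up of myogenic-like cells differed between libraries, with 44 and 634 cells in the sub-cluster led by Ucp2 and 578 and 60 in the one led by C1qtnf3. Within these the Tgfbr3 log2 ratios were -0.15 (-0.43 to 0.15) and -0.13 (-0.32 to 0.06), whereas the sub-cluster led by Abtb3, with 190 and 251 cells, had -0.90 (-1.07 to -0.73). Each of the 3 calls was lost under 3 or more of 16 alternatives: Tgfbr3 was -0.47 and Tgfb3 -0.33 with cells thinned to 2000 UMIs, and Tgfb1 was 0.29 with cells named by a per-cell marker gate. The glial-like Tgfb2 ratio was -0.57 with that gate, under the fold.

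Tenocyte-like cells had 1 of 8 genes higher, Tgfb1 at 48.5 CPM (174 UMIs) and 84.1 (424 UMIs), a log2 ratio of 0.78 (0.54 to 1.06), where 11.5% of 7013 genes were higher and 9.72% lower. With an equal mix of sub-clusters this was 0.18, under the fold, and the sub-cluster led by F2rl1 and Ccl2 held 1 and 174 cells. Mstn had a log2 ratio of -0.26 (-0.54 to 0.01) in tenocyte-like cells and -0.13 (-0.58 to 0.33) in myofibre-like cells, with intervals that include 0 in both. In the Sord and C1ql3 sub-cluster of tenocyte-like cells it had 0.82 (0.52 to 1.12), with 40% of the UMIs of the library labelled KO in 1 cell. Tgfbr1 in perineurial-like cells was at 208 CPM (101 UMIs) and 104 (79 UMIs), a log2 ratio of -0.99 (-1.44 to -0.56), where 11.9% of 2706 genes were lower and 13.5% higher. Summed erythroid markers in that class were at 14.4 and 15068 CPM, and their part in the ratio was not tested. Tgfbr3 in macrophage-like cells, at 26.8 CPM (56 UMIs) and 41.1 (166 UMIs), had a log2 ratio of 0.60 (0.17 to 1.08), where 13.1% of 6380 genes were higher and 8.26% lower. The make-up of this class differed too, with 158 and 77 cells in the sub-cluster led by Lyve1 and 22 and 101 in the one led by Saa3. A sub-cluster named endothelial held 8 and 39 cells. Tgfbr3 log2 ratios were 0.44 in the Lyve1 sub-cluster, -0.04 in the Ikzf3 one and 0.91 in the larger dendritic one. All 3 intervals include 0. Of the 56 UMIs of the library labelled WT 1 cell held 38%, and the ratio was -0.91 with each library clustered alone. The call was kept in 7 of 16 alternatives, and was lost without sub-clusters led by markers of another class. No gene of the 10 passed the fold in T-cell-like or myofibre-like cells, in which 4 and 1 of them passed the floors. Of all genes there, 8.01 and 7.34% were higher and 4.62 and 4.75% lower.

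**Figure D3:**
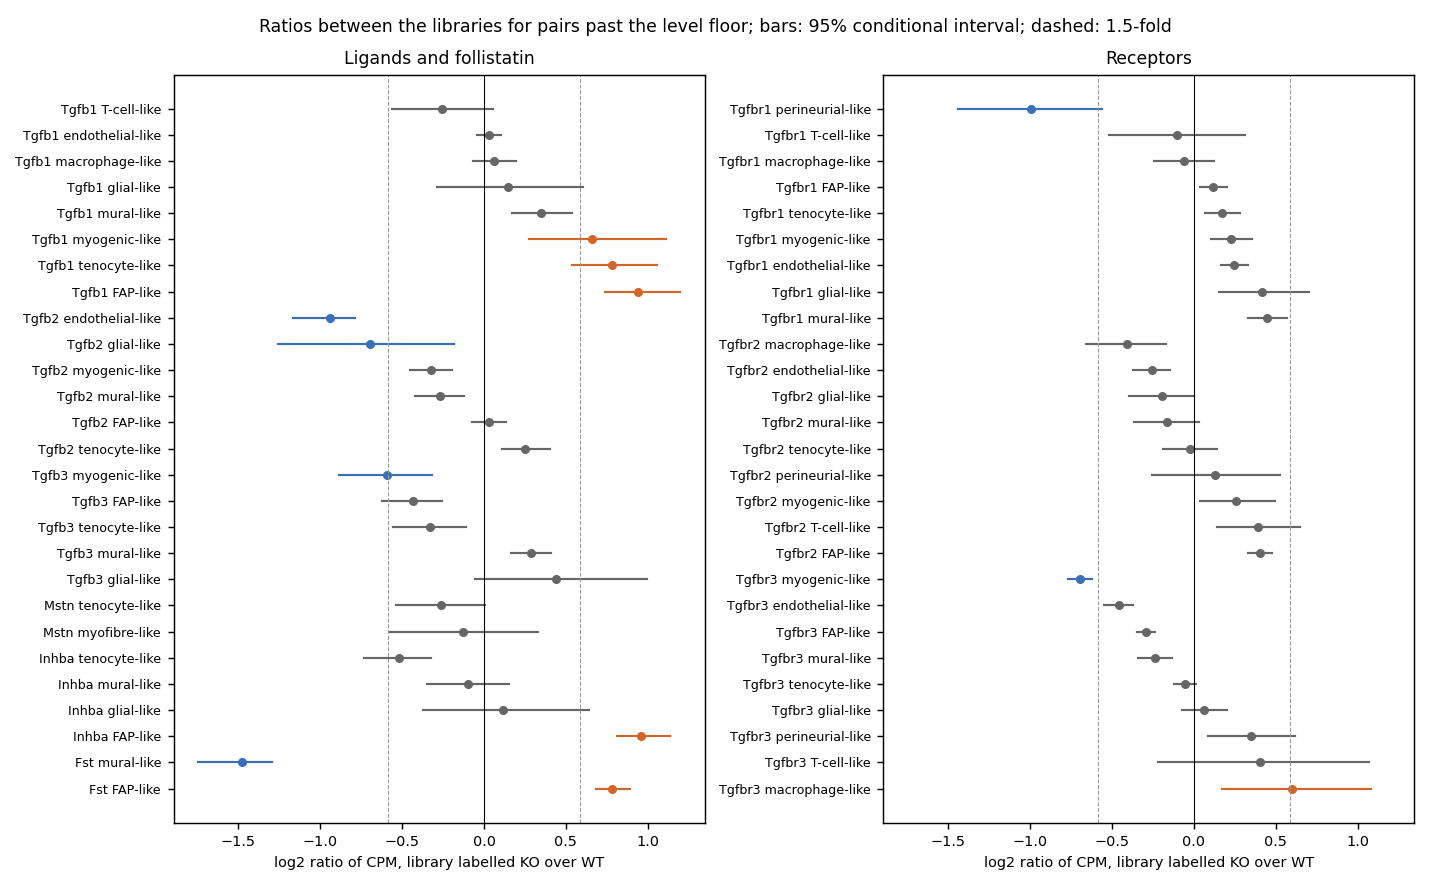
Log2 ratio, library labelled KO divided by library labelled WT, for the gene and class pairs past the floors, with 95% intervals for counting error only, dashed lines at 1.5-fold, and orange or blue for pairs past it. Tgfb1, Inhba and Fst lie above 1.5-fold in FAP-like cells (0.94, 0.96 and 0.78), and Fst in mural-like cells lies lowest at -1.48.

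The rest of the pathway was described by 65 genes in 6 lists. In FAP-like cells 50 of them passed the floors, 11 were higher and 5 lower past 1.5-fold, beside 11.9 and 11% of all genes, with a median log2 ratio of 0.10 against 0.03 for all genes. Of 15 genes of latency and activation 11 passed the floors, 1 higher and 1 lower, with a median of -0.18. Thbs1, which frees latent TGF-beta, was the higher one at 433 and 3246 CPM, and Bmp1, a procollagen protease, the lower one at 176 and 112. Thbs1 was a leading gene of the F2rl1 and Thbs1 sub-cluster, which held 1 and 258 cells, and the part of this sub-cluster in the ratio was not tested. Ltbp1, a latent TGF-beta binding protein, had 377 and 265 CPM and a log2 ratio of -0.50, and the protease gene Furin had 0.40, both within the fold.

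Of 8 other receptor genes 7 passed the floors, 2 higher and none lower, with a median of 0.30. The higher ones were the pseudoreceptor gene Bambi, at 25.5 and 42.6 CPM, and Acvr1b, the type I receptor of activin, at 20.7 and 34.3. Acvrl1 and Bmpr2 were within the fold, at -0.58 and 0.36. Of 8 antagonists 4 passed, and Fstl3, a follistatin relative, was higher at 8.38 and 21.6 CPM, past the floor in the library labelled KO alone. Dcn, Bgn and Fstl1 had log2 ratios of -0.19, 0.01 and 0.01. None of 4 other ligand genes passed the floors.

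Of 14 SMAD transducers and regulators 13 passed, 3 higher and none lower, with a median of 0.13. These were Tgif1, a corepressor, with a log2 ratio of 0.77, Smad3, a transducer, at 72.9 and 116 CPM, and Skil, a SMAD inhibitor, at 162 and 247. Smad7, the inhibitory SMAD, was within the fold at 0.35. Of 16 response genes 15 passed, 4 higher and 4 lower, with a median of 0.17. Among the higher ones, Ccn2, a matricellular protein gene, Timp1, a metalloproteinase inhibitor, and Postn, a matrix protein gene, had log2 ratios of 2.18, 1.29 and 1.22. Ccn2, like Thbs1, was a leading gene of the F2rl1 and Thbs1 sub-cluster. Timp1, at 15.4 and 39.2 CPM, passed the floor in the library labelled KO alone. The lower ones were the fibrillar collagen genes Col3a1 and Col1a1, at -1.03 and -1.02, with Cilp at -0.63 and Tsc22d1 at -0.60, so genes commonly listed as TGF-beta responsive lay on both sides.

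In the other classes the same 65 genes had medians from -0.07 (endothelial-like) to 0.26 (macrophage-like), beside 0.01 and 0.12 for all genes. Endothelial-like cells had 1 higher and 5 lower of 43 past the floors (2.22 and 5.57% of all genes), led by Tll1, a protease of the Bmp1 family, at 100.2 and 38.5 CPM and by the microfibril gene Fbn1, with a log2 ratio of -1.16. Mural-like cells had 5 higher and 4 lower of 47 (3.54 and 5.51%), with Postn at 171 and 65.0 CPM but Ccn2 at 106 and 259. Tenocyte-like cells had 6 higher and 7 lower of 49 (11.5 and 9.72%), with Col1a1 at 6155 and 2137 CPM and Timp1 at 266 and 722. Macrophage-like cells had 8 higher and 3 lower of 35 (13.1 and 8.26%), with Thbs1 at 299 and 2975 CPM. Myogenic-like cells had 8 higher and 3 lower of 42 (11.5 and 9.13%), led by Tagln at a log2 ratio of 1.89, Ccn2 at 1.59 and the co-receptor gene Eng at 1.56. Ccn2, at 18.8 and 58.7 CPM, and Eng, at 12.2 and 38.0, passed the floor there in the library labelled KO alone. Glial-like cells had 1 higher and 6 lower of 45 (3.83 and 3.58%), led by Lox at -1.47, past the floor in the library labelled WT alone. Col1a1, at 110 and 43.7 CPM, and the FAP marker Dcn, at 204 and 98.1, came next. Summed FAP markers in glial-like cells were 384 and 184 CPM, and their part in these ratios was not tested. Perineurial-like, T-cell-like and myofibre-like cells had 4, 3 and 1 higher and 1 lower each, of 26, 20 and 13, beside 13.5, 8.01 and 7.34% of all genes higher and 11.9, 4.62 and 4.75% lower. In T-cell-like cells the leading genes were Thbs1, at 4.96 and 123 CPM, and Dcn, a FAP marker, at 19.9 and 209. Both passed the floor in the library labelled KO alone, while summed FAP markers there were 99.3 and 350 CPM.

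**Figure D4:**
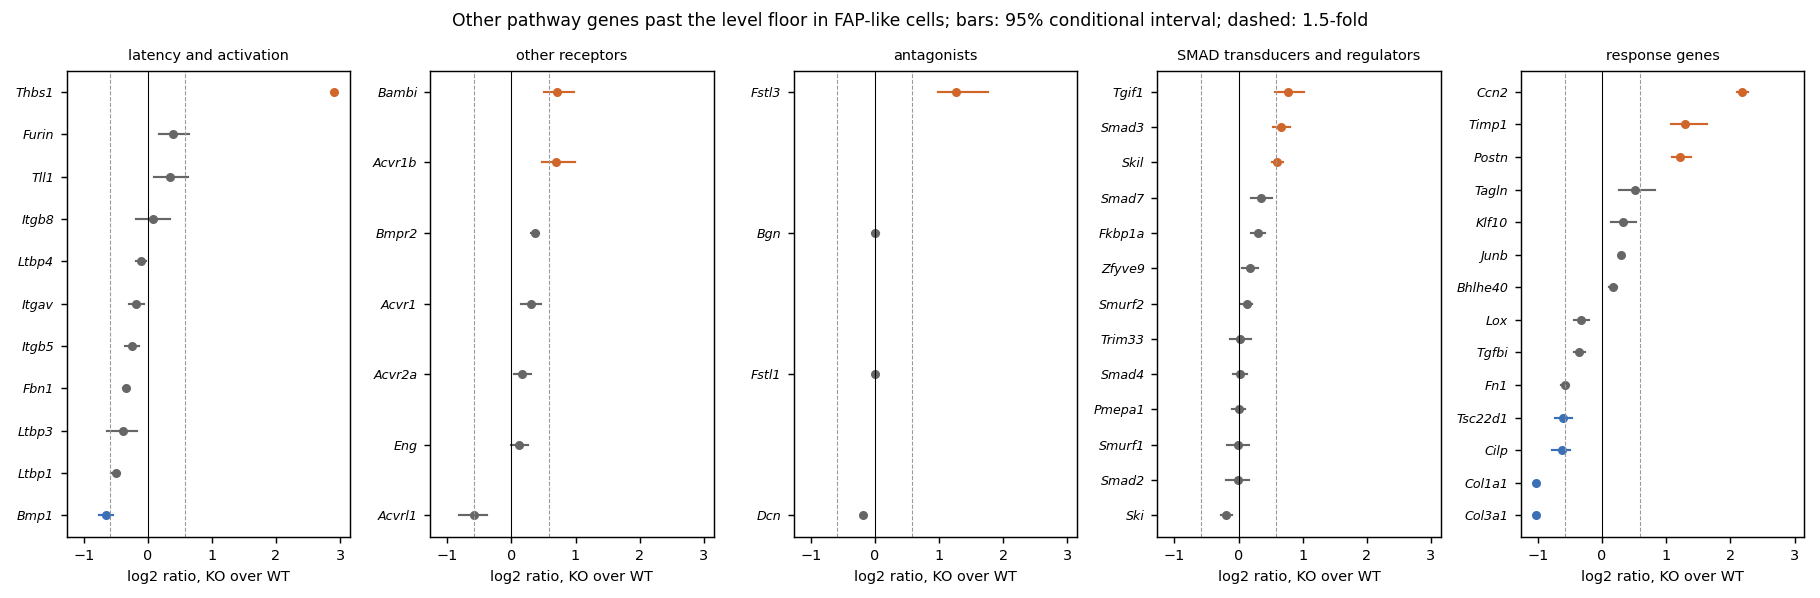
Log2 ratio, library labelled KO divided by library labelled WT, in FAP-like cells for the pathway genes past the floors, by list. Thbs1 (2.90) and Ccn2 (2.18) lie highest, and Col3a1 (-1.03) and Col1a1 (-1.02) lowest. Thbs1 and Ccn2 are leading genes of a sub-cluster with 1 and 258 cells in the libraries labelled WT and KO.

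Among 12096 genes with at least 20 CPM in 1 class, those with the pattern most like each gene over the 12 classes were ranked by the Pearson r of log2 levels. For Tgfb1 they were Casp8, Arrdc1 and Prcp (r = 0.94, 0.93 and 0.93), for Tgfb2 Nfix, Smarca1 and Gnao1 (0.93, 0.91 and 0.91) and for Tgfb3 Arhgef25, Rarb and Plekhh3 (0.97, 0.96 and 0.96). For Tgfbr1 they were Zfp36l1 and Slc38a6 (0.96 and 0.92), for Tgfbr2 Slc38a10, Add3 and Disp1 (0.95, 0.92 and 0.91) and for Tgfbr3 Fkbp7, Ikzf4 and Zbtb20 (0.98, 0.98 and 0.97). For Mstn they were C1qtnf4, Scx and Fndc5 (0.90, 0.86 and 0.84), of which Scx is a tendon gene and Fndc5 a muscle gene. For Inhba they were Gm49767, Naalad2 and Vasn (0.97, 0.96 and 0.96), and for Fst Il17d, Astn2 and Lgi2 (0.93, 0.92 and 0.92). With 12 points and 12096 genes ranked, high values are common. With Spearman's rho none of the 3 names was kept for 5 of the 9 genes ranked (Tgfb1, Tgfbr1, Tgfbr2, Mstn and Fst), so neither Scx nor Fndc5 was kept for Mstn.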

How the data were processed

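The deposited files hold raw UMI counts per gene and barcode, which the authors made with Cell Ranger. The submitters' processing notes name version 9.0.0 and build mm10, but per the file headers the WT counts came from 8.0.0. Of the gene IDs, 1735 are not in GENCODE M21, and gene positions are RefSeq's.

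Barcodes were kept with at least 500 genes, mitochondrial UMIs up to 10% and no mark from the doublet caller Scrublet, which took 1.00 and 3.18%, so doublets may remain. Leiden clustering at resolution 1 (scanpy 1.11.5) left out the 10 genes, the pathway lists and mitochondrial genes from the 2000 variable genes per library. Clusters were named from marker lists, and each class was clustered again at 0.5. Counts were summed per class and library. Levels have exact Poisson, shares Clopper-Pearson and ratios conditional binomial intervals, the last without the added 1 CPM. Libraries were compared in the 10 classes with at least 100 cells in each, and levels are given for the 12 with at least 50. The genes and lists were chosen with earlier results of these data known. Named were all 10 genes, the 4 list genes per list furthest from 0 in FAP-like cells, the 3 over all lists in other classes, and the 3 most alike genes. Cilp, Tsc22d1, Col1a1 and Col3a1 in FAP-like cells are named besides, after their values were seen. Alternatives numbered 16 planned and 2 added. A few genes that fall under this rule or in the lists are neither named nor plotted, though counted. The ratios were tested on simulated data.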

Additional observations from a re-analysis of the deposited data

Results flagged for a closer look

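Fst had log2 ratios on opposite sides of 0 past 1.5-fold in FAP-like cells (0.78) and mural-like cells (-1.48). Tgfbr3 likewise had 0.60 in macrophage-like cells and -0.69 in myogenic-like cells. With 1 library per group the difference between classes was not tested in either case.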

How the results depend on the processing

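No paired analysis was possible because each group has 1 library, and no replicate could be left out for the same reason. Of the 12 gene and class pairs past 1.5-fold, 5 stayed past it in every alternative that keeps this fold (16 each, and the 13 that could be run for perineurial-like cells): Tgfb1 and Fst in FAP-like cells, Fst in mural-like cells, Tgfb2 in endothelial-like cells and Tgfbr1 in perineurial-like cells. Tgfbr3 in macrophage-like cells reversed, to -0.91, with each library clustered alone, and the cause was not tested. The 6 pairs higher became 3 with an equal mix of sub-clusters, 13 with floors of 5 CPM and 30 UMIs, 20 with no floor, 0 at 2-fold and 3 without sub-clusters with under 30 cells in 1 library, the last chosen after seeing the data. The 6 pairs lower became 3 with cells thinned to 2000 UMIs, 11 with no floor and 1 at 2-fold. The 11 pathway genes higher in FAP-like cells became 7 with the equal mix and 6 at 2-fold, and the 5 lower became 2 with edgeR's TMM factors per class, 8 with thinning and 2 at 2-fold. Where floors and folds changed, the alternative itself sets how many pairs can count, and for the other settings the cause was not tested. Low counts limit Acvr2b in every class and Mstn outside tenocyte-like and myofibre-like cells.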
